A study of Mus musculus with 16 samples.

Results

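The genes described here are 42 collagen and laminin genes that encode matrix other than the normal glomerular basement membrane, of 30142 genes with a probeset on the array. They are every gene with a symbol of the form Col#a# or of the laminin alpha, beta and gamma chains, measured by a probeset that carries only that symbol. The 10 chains Col4a1 to Col4a6, Lama5, Lamb1, Lamb2 and Lamc1, from which the glomerular and neighbouring kidney basement membranes are built, were left out and are given beside them. There were 36 collagens and 6 laminins, each with 1 probeset. Probesets for Col7a1 and Col6a4 also carry the symbols Mir711 and Dvwa, so these 2 genes were left out.

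RNA came from glomerular extracts of the kidney cortex of 16 female mice, hybridised to 1 array per mouse. Of these, 8 were wild type (C57Bl/6) and 8 were B6.ERαKO mice on that background, called knockout here, which lack oestrogen receptor alpha. The age of the mice and the way the knockout allele was made: not given in the sources used here. Each genotype had 2 untreated mice and 2 at each of 3 times (18 hours, 6 days, 2 weeks) after intraperitoneal sheep nephrotoxic serum (8 ul per g), which binds the glomerular basement membrane and causes glomerulonephritis.

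Collagens are built from 3 chains wound into a triple helix. Fibrillar collagens (types I, II, III, V, XI, XXIV and XXVII) assemble into the ropes of interstitial matrix and scar, and fibril-associated collagens (types IX, XII, XIV, XVI, XIX, XX and XXII) sit on their surface. Type VI forms beaded filaments, type VIII forms hexagonal networks, the multiplexins XV and XVIII lie in basement membranes, and transmembrane collagens are cell surface proteins that can be shed. Laminins are heterotrimers of an alpha, a beta and a gamma chain that organise basement membranes. In the healthy glomerulus fibrillar collagen is scarce, and in progressing glomerulonephritis it is known to accumulate in the mesangium, in crescents and around Bowman's capsule.

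The values are deposited log2 units, and a difference of them is not a fold of RNA, because the highest value (19.93) exceeds what a plain log2 of scanner signal can reach. Levels of different genes are not compared. A gene was called when limma's adjusted p (Benjamini-Hochberg over all 30142 genes) was under 0.05, and errors of differences are limma standard errors. A difference between 2 groups compares 2 arrays with 2, and the average over the 4 times compares 8 arrays with 8. A response difference sets 2 differences between groups against each other. Where arrays are left out, some groups hold 1 array. The Esr1 probeset, which reads the targeted gene, lay between 6.35 and 7.53 in wild type and between 7.11 and 7.64 in knockout. It was therefore not lower in the knockout, and since it is not known whether the probes lie in the deleted part, it checks nothing. On 14 of 16 arrays the mean of 7 genes known to be higher in male kidney separated the genotypes, at 7.41 to 9.07 in wild type and 12.11 to 16.53 in knockout. The replicate 2 arrays at 18 hours were the reverse, at 15.99 for the array labelled wild type and 7.37 for that labelled knockout, so results at 18 hours rest on arrays that go against their labels. The array of knockout 2 weeks replicate 1 stood apart from its replicate, with a mean of 5 tubule injury genes of 5.81 against 8.82 and a range of 5.95 to 6.21 in untreated knockout. Results are given without these arrays where that changes a call. Of the podocyte markers 7 of 10 were measured, and their mean ranged from 9.58 to 11.67 over the arrays. The mean of the 10 proximal tubule markers ranged from 12.995 to 16.10, so the extracts held tubule RNA as well.

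At 2 weeks after serum in wild type, 6 of the 42 genes rose and 1 fell. The risers were the chains of type I and type III collagen (Col1a1, Col1a2, Col3a1), 2 chains of type V (Col5a1, Col5a3) and 1 of type VI (Col6a2), by 0.39 to 1.24, and the gene that fell was the laminin gamma 3 chain, Lamc3. That is 16.7% of the genes described, beside 8.04% of all genes tested. For rises it is 14.3% beside 4.81% of all genes, and 3.23% of all genes fell. In the other 13 contrasts of the fit to 16 arrays, including every knockout response and every comparison between genotypes, none of the 42 passed. In whole extracts, more cells of a type and more RNA per cell cannot be told apart.

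Among the fibrillar collagens 5 of 11 rose in wild type at 2 weeks. Col1a1, which encodes the alpha 1 chain of type I collagen, the main collagen of scar, stood at 6.36 and 6.77 in the 2 untreated wild-type mice and at 7.76 and 7.86 in the 2 mice at 2 weeks. The highest of the other 14 arrays was 6.96, so both 2-week wild-type arrays lay above all others. The difference was 1.24 ± 0.20 (limma adjusted p = 0.0122). Col1a2, the partner chain, went from 6.77 and 6.93 to 7.86 and 8.17. Again the 2-week wild-type arrays exceeded every other array, the nearest being 7.42 in knockout at 2 weeks (difference 1.16 ± 0.28, limma adjusted p = 0.0353). Col3a1 encodes type III collagen, which forms fibrils together with type I. It went from 6.04 and 6.26 to 6.88 and 7.01, above a maximum of 6.49 elsewhere, a difference of 0.80 ± 0.14 (limma adjusted p = 0.0156).

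Type V collagen nucleates type I fibrils and sets their diameter. Col5a1 went from 5.62 and 5.69 to 5.93 and 6.16 (difference 0.39 ± 0.10, limma adjusted p = 0.0423). Col5a3 went from 5.47 and 5.45 to 5.84 and 6.40 (0.66 ± 0.15, limma adjusted p = 0.0317), with the 2 arrays at 2 weeks further apart than those of Col5a1. The third chain, Col5a2, differed by 0.03 ± 0.14 and its groups overlapped. The cartilage-type fibrillar genes Col2a1, Col11a1 and Col11a2, and Col24a1, were not called, and Col27a1 differed by -0.21 ± 0.16.

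RefSeq (GRCm38.p6) gives a promoter entry for 30 of the 42 genes. For the fibrillar genes that rose together and have an entry, the 250 bases before the transcription start of that entry are shown so their sequences can be compared. For Col5a1 and Col5a3 this start lies inside the annotated gene, which begins at 27886381 for Col5a1 and at 20815117 for Col5a3. The last bases shown for these 2 therefore fall within the gene. They are written 5′ to 3′ in the direction of transcription. Capitals mark exact matches on either strand to 3 short motifs of many promoters, and no marked matches overlap. One is CCAAT, which is bound by the factor NF-Y. Another is GGGCGG, the core of the GC box, which Sp family factors bind. The last is TATAAA, which is recognised by the general transcription machinery.
Col1a2 (chr6:4505368-4505617, plus strand): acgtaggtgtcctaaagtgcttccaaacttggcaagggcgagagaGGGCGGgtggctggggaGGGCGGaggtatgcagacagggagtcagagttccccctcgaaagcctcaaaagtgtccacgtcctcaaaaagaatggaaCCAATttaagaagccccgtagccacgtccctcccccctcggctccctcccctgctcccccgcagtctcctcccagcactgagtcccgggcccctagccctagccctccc
Col3a1 (chr1:45311288-45311537, plus strand): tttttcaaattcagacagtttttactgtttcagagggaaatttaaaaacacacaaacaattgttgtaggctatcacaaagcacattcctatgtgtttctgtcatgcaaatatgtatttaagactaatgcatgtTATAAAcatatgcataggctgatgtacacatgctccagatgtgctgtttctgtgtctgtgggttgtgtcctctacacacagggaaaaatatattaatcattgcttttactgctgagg
Col5a1 (chr2:27886175-27886424, plus strand): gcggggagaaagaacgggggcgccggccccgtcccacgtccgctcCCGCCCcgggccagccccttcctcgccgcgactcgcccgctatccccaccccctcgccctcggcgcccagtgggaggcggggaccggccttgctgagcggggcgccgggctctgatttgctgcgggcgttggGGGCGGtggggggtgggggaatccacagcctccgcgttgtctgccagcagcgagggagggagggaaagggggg
Col5a3 (chr9:20815068-20815317, minus strand): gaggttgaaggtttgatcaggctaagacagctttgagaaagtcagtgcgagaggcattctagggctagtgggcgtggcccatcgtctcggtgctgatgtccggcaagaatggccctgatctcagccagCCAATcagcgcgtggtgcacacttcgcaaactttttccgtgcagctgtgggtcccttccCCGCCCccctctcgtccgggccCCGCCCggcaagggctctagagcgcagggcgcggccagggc
The letters differ between the 4. In Col1a2 there are 2 GC box cores, starting 205 and 188 bases before the start, and a CCAAT at 109. In Col3a1 the single match is a TATAAA that begins 117 bases before the start. Col5a1 holds 2 GC box cores, and Col5a3 a CCAAT and 2 GC box cores. Over the 34 starts of the genes described, CCAAT was found in 23.5%, GGGCGG in 50.0% and TATAAA in 14.7%, beside 33.8%, 32.7% and 12.4% of all 32851 promoters of this length. These are matches of letters only.

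**Figure D1:**
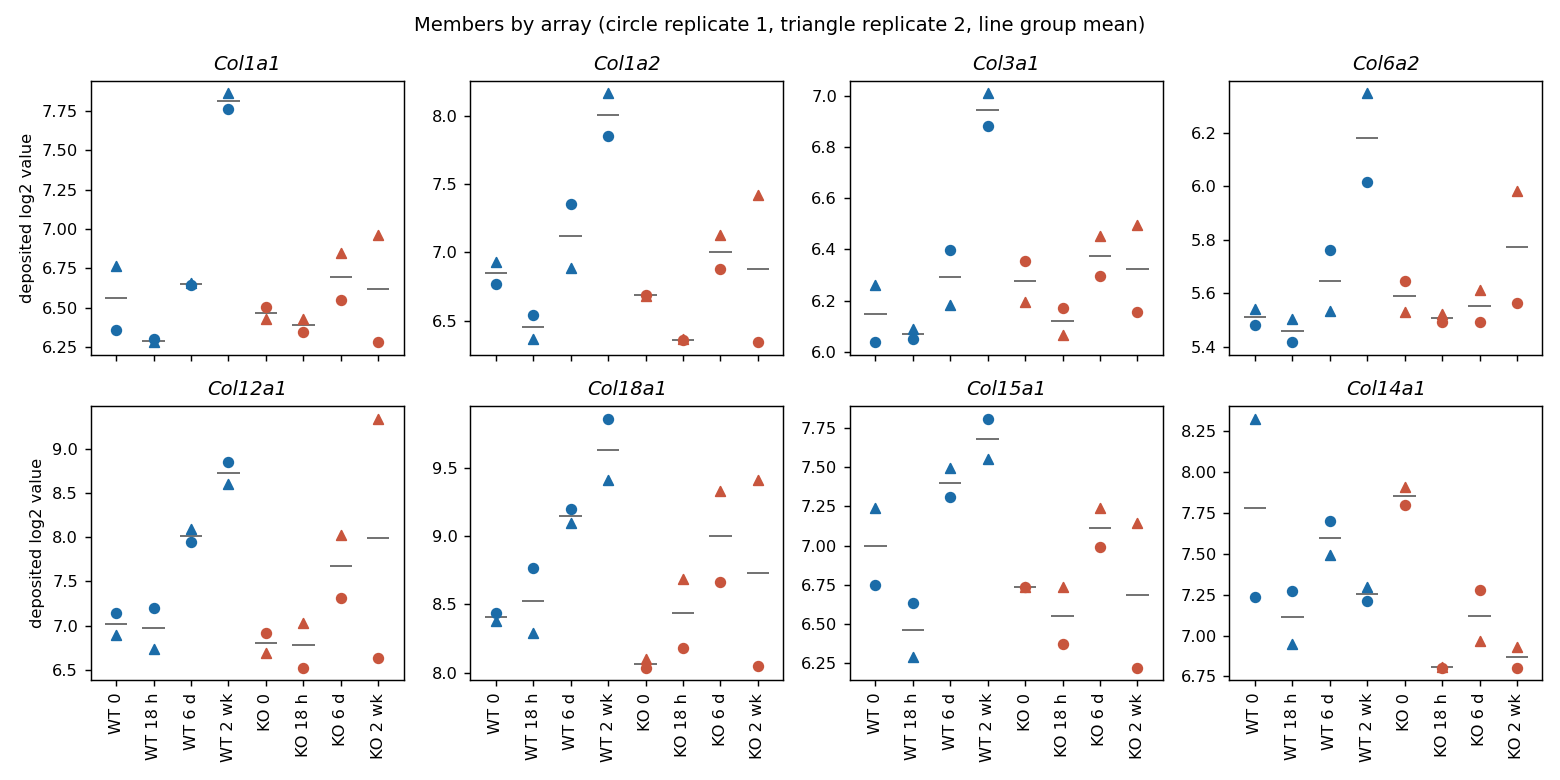
Deposited log2 value (vertical axis) of each array for 8 collagens, with the 8 groups of genotype and time along the horizontal axis and 1 point per mouse (circle replicate 1, triangle replicate 2, line the group mean). The 2 wild-type arrays at 2 weeks lie above all other arrays for Col1a1, Col1a2, Col3a1, Col6a2 and Col15a1. The 2 knockout arrays at 2 weeks lie far apart for Col12a1 (6.63 and 9.34).

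Type VI collagen links fibrils to cells and basement membranes, and its classical chains are Col6a1, Col6a2 and Col6a3. Col6a2 went from 5.48 and 5.54 in untreated wild type to 6.01 and 6.35 at 2 weeks (0.67 ± 0.15, limma adjusted p = 0.029). Col6a1 stood at 5.77 and 5.89 before and at 6.39 and 6.28 at 2 weeks, and Col6a3 at 6.24 and 6.47 before and 6.81 and 7.09 after. For both, the 2 groups did not overlap, but the differences of 0.51 ± 0.15 and 0.60 ± 0.18 did not pass (limma adjusted p = 0.0645 and 0.0668). The epithelial chain Col6a6 differed by 0.16 ± 0.29 and Col6a5 and Col28a1 were not called.

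The widest difference in wild type at 2 weeks was that of Col12a1, a fibril-associated collagen of tissues under load, but it did not pass. Its level was 7.15 and 6.89 untreated, 7.95 and 8.09 at 6 days and 8.85 and 8.60 at 2 weeks, a difference at 2 weeks of 1.71 ± 0.63 (limma adjusted p = 0.104). In knockout it was 6.92 and 6.69 untreated, 7.31 and 8.03 at 6 days, and 6.63 and 9.34 at 2 weeks. The 2 knockout mice at 2 weeks thus held the second lowest and the highest value of the 16 arrays, a gap that the error shared by all groups takes in. Without the array of knockout 2 weeks replicate 1 and both 18-hour replicate 2 arrays (13 arrays, chosen after seeing the data), the lone knockout array at 2 weeks being assumed to vary like the other groups, Col12a1 was called in both genotypes. The differences were then 1.71 ± 0.23 in wild type and 2.54 ± 0.28 in knockout (limma adjusted p = 0.00486 and 0.0127).

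Col18a1, the source of endostatin and a component of epithelial and endothelial basement membranes, also had its highest wild-type levels at 2 weeks. In wild type it stood at 8.44 and 8.38 untreated, 8.77 and 8.29 at 18 hours, 9.20 and 9.10 at 6 days and 9.86 and 9.41 at 2 weeks. In knockout it stood at 8.04 and 8.10 untreated, 8.67 and 9.33 at 6 days, and 8.04 and 9.41 at 2 weeks. The differences at 2 weeks (wild type 1.23 ± 0.38, knockout 0.66 ± 0.38) did not pass (limma adjusted p = 0.0703 and 0.673). On 13 arrays they were 1.23 ± 0.23 and 1.34 ± 0.28 and both passed (limma adjusted p = 0.0118 and 0.037), beside 12.9% and 4.35% of all genes. Its relative Col15a1, a collagen of vascular and muscle basement membranes, went from 6.75 and 7.24 to 7.81 and 7.56 in wild type (0.69 ± 0.27, limma adjusted p = 0.125). The network collagen Col8a1, known from endothelium and vessel walls, went from 5.28 and 5.94 to 6.03 and 6.74 (0.77 ± 0.29, limma adjusted p = 0.108).

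Col14a1, another fibril-associated collagen, lay the other way. It was 7.23 and 8.32 in untreated wild type, 7.27 and 6.95 at 18 hours, 7.70 and 7.49 at 6 days and 7.21 and 7.30 at 2 weeks. In knockout it was 7.80 and 7.91 untreated, and 6.80 to 7.28 on the 6 arrays after serum. The untreated knockout arrays lay above all 6 later ones, whereas the untreated wild-type arrays lay far apart and overlapped with all 3 later groups. The differences in knockout were -1.05 ± 0.27 at 18 hours, -0.73 ± 0.27 at 6 days and -0.99 ± 0.27 at 2 weeks, and none passed (limma adjusted p = 1, 0.528 and 0.276).

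The other collagens gave smaller differences, beside a shift of the whole array. Of the 42 genes 37 lay higher in wild type at 2 weeks, with a median difference of 0.32, beside 64.6% of all genes and a median of 0.13. The groups did not overlap upward for 30 of the 42 (39.1% of all genes) and downward for Lamc3 alone (20.0% of all genes). Some of these 30 repeated an identical value on several other arrays, such as 5.2436 for Col22a1, 6.3668 for Col16a1 and 5.3791 for Col2a1. Of the 24 members below the median gene level all 24 lay higher, with a median of 0.33, beside 83.2% of all such genes and a median of 0.21. Of the 18 above it 13 lay higher, with a median of 0.15, beside 46.0% and -0.04. The array of wild type 2 weeks replicate 2 was the highest of all 16 for 23 of the 42 genes and for 30.9% of all genes, and its median over genes was 6.22, against 5.92 to 6.09 on the others. Without that array the median difference was 0.15 over the 42 genes and 0.056 over all genes, and 34 of the 42 lay higher.

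When the arrays were quantile normalised, which brought the median difference of all genes to 0.0021, the calls were Col1a1 (1.21, limma adjusted p = 0.0187), Col3a1 (0.65, limma adjusted p = 0.0333) and Lamc3 (-0.65, limma adjusted p = 0.0267). Col1a2 kept its difference of 1.16 and missed the threshold (limma adjusted p = 0.0508). Col5a1, Col5a3 and Col6a2 did not pass either, with 0.17, 0.45 and 0.45 (limma adjusted p = 0.293, 0.0888 and 0.0994). The dim members moved towards 0, and 19 of the 24 below the median gene level then lay higher.

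**Figure D2:**
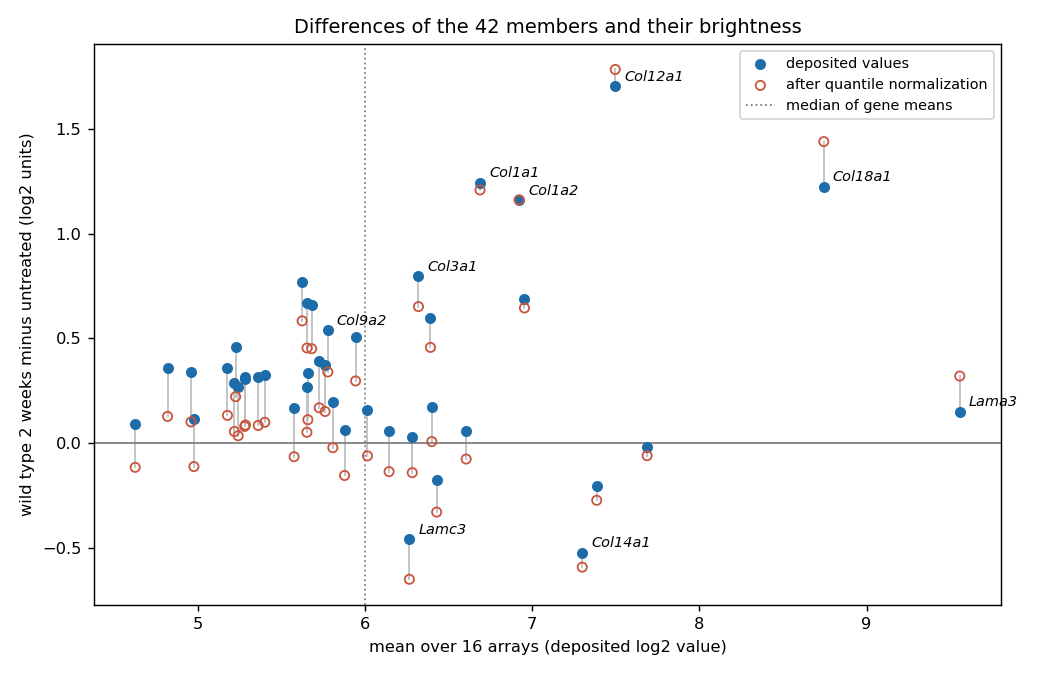
Difference in wild type between 2 weeks and untreated (vertical axis, log2 units) against the mean over 16 arrays (horizontal axis, deposited log2 value), 1 pair of points for each of the 42 genes. Filled points are deposited values, open points the same after quantile normalization, and the dotted line is the median of all gene means. All 24 filled points left of the line lie above 0 and 19 of the open ones do, while Col1a1 and Col1a2 hardly move (1.24 to 1.21, and 1.16 in both).

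Of the 6 laminin chains only Lamc3 was called. Lamc3 encodes gamma 3, a chain of few laminins, and its level was 6.54 and 6.60 in untreated wild type, 6.32 and 6.24 at 18 hours, 6.40 and 6.13 at 6 days and 6.20 and 6.01 at 2 weeks. All 6 wild-type arrays after serum lay below both untreated ones, and it fell by 0.46 at 2 weeks (standard error 0.12, limma adjusted p = 0.0396). In knockout it was 6.36 and 6.37 untreated and 6.07 to 6.25 after serum, again without overlap, with a difference of -0.17 ± 0.12 at 2 weeks that did not pass (limma adjusted p = 0.731). The mean of the 10 proximal tubule markers went from 15.50 and 16.10 to 12.995 and 14.23 in wild type at 2 weeks, and its part in the Lamc3 result was not tested.

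Lama4, the alpha chain of vascular laminin, stood at 6 days at 7.25 and 7.02 against 6.68 and 6.69 in untreated wild type (0.45 ± 0.17, limma adjusted p = 0.625). Lama2, the muscle and nerve chain, stood at 6.63 and 6.52 in untreated knockout and at 6.04 and 6.18 at 18 hours (-0.46 ± 0.15, limma adjusted p = 1). Lamb3, a chain of the same epithelial laminin as Lama3, lay between 5.47 and 6.18 on the 16 arrays and was not called.

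Between genotypes Lama3 gave the widest average difference of the 42 genes. It encodes the alpha chain of the laminin that anchors epithelia. In wild type it was 9.10 and 8.75 untreated, 9.48 and 10.03 at 18 hours, 8.57 and 8.53 at 6 days and 9.09 and 9.07 at 2 weeks. In knockout it was 10.15 and 10.10 untreated, 10.48 and 9.39 at 18 hours, 9.96 and 9.78 at 6 days and 10.06 and 10.39 at 2 weeks. Every knockout array lay above every wild-type array except the replicate 2 arrays at 18 hours, which crossed. Over 16 arrays the difference averaged over the 4 times was 0.96 ± 0.15 and did not pass (limma adjusted p = 0.176), with 10 of the 42 genes and 3514 of all genes at an unadjusted p under 0.05 and none of either called.

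Without the 18-hour replicate 2 arrays (14 arrays, chosen after seeing the data) wild type lay between 8.53 and 9.48 and knockout between 9.78 and 10.48 for Lama3. The difference was 1.17 ± 0.10 (limma adjusted p = 0.000691), beside 1.72% of all genes called. Lama3 was then also called in untreated mice, at 1.20 ± 0.17 (limma adjusted p = 0.0453, 0.169% of all genes), and at 6 days, at 1.32 ± 0.17 (limma adjusted p = 0.0229, 0.236% of all genes). The level of Lama3 followed the male-biased genes on all 4 arrays at 18 hours: it was higher on the 2 arrays where those genes were high, whatever the label. The part of these genes in the Lama3 difference was not tested.

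Lama1, the alpha chain of embryonic laminin that in the adult kidney is found in tubular and mesangial matrix, stood without serum at 7.23 and 7.79 in wild type, against 8.11 and 7.82 in knockout. The 6-day levels were 7.11 and 7.13 in wild type, against 8.14 and 7.84 in knockout, a difference of 0.87 ± 0.22 that did not pass (limma adjusted p = 0.809). On 14 arrays the average difference of Lama1 was 0.55 ± 0.11 (limma adjusted p = 0.0497), and wild type (up to 7.79) and knockout (from 7.70) overlapped. Col6a6 read 5.67 and 5.64 in wild type before serum, against 6.73 and 6.19 in knockout (0.80 ± 0.29, limma adjusted p = 0.918). Col19a1, a rare fibril-associated collagen, lay between 4.75 and 4.92 in wild type and between 4.96 and 5.47 in knockout on 14 arrays. Col19a1 and Lama3 were the 2 genes of the 42 whose genotypes did not overlap there with knockout higher, beside 0.484% of all genes.

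**Figure D3:**
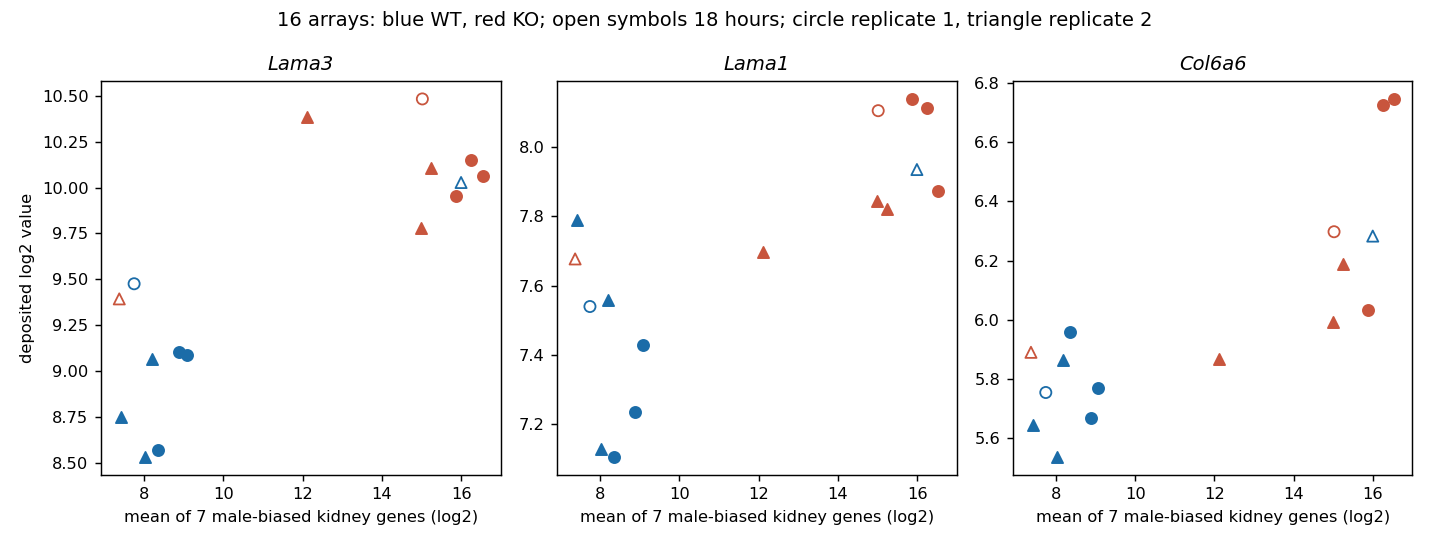
Deposited log2 value of Lama3, Lama1 and Col6a6 (vertical axes) against the mean of 7 male-biased kidney genes (horizontal axis, log2), 1 point per array, in blue for wild type and red for knockout. Open symbols are 18 hours and triangles replicate 2. The open triangle labelled wild type lies with the knockout arrays and that labelled knockout with the wild-type arrays.

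At 6 days in wild type, no member passed, as was so for all genes (0.0% called), with 3 of 42 and 2106 of all genes at an unadjusted p under 0.05 in limma. The 4 widest upward differences were those of Col12a1 (0.997 ± 0.63), Col18a1 (0.74 ± 0.38), Col8a1 (0.64 ± 0.29) and Lama4, and Lama1 and Lama3 differed most downward (-0.39 ± 0.22 and -0.38 ± 0.30). Of the fibrillar genes, Col1a1 was at 6.65 and 6.66 (0.09 ± 0.20) and Col3a1 at 6.40 and 6.18 (0.14 ± 0.14). In knockout at 6 days 4 genes in all were called (0.0133%) and none of the 42, with 4 of the 42 and 2250 of all genes at an unadjusted p under 0.05. The widest upward differences there were Col18a1 by 0.93 ± 0.38, Col12a1 by 0.87 ± 0.63, Col8a1 by 0.77 ± 0.29 and Col15a1 by 0.38 ± 0.27. The untreated and 6-day knockout arrays of each of these 4 did not overlap, as for 12 of the 42 upward (23.3% of all genes). Col14a1 and Col6a6 (-0.45 ± 0.29) lay lowest.

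At 18 hours no gene was called in either genotype (0.0%), with 5 of the 42 in wild type and 2 in knockout at an unadjusted p under 0.05 in limma, beside 1186 and 1216 of all genes. Col15a1 was 6.63 and 6.29 in wild type (-0.53 ± 0.27), Col14a1 differed by -0.67 ± 0.27, Lama3 by 0.82 ± 0.30, Col6a6 by 0.36 ± 0.29, Lama1 by 0.22 ± 0.22 and Lamb3 by 0.21 ± 0.18. In knockout Col18a1 differed by 0.37 ± 0.38, Col5a2 by 0.17 ± 0.14, Col8a2 by 0.17 ± 0.15 and Lamb3 by 0.16 ± 0.18, beside Col14a1 and Lama2 on the other side. Without the replicate 2 array the wild-type Lama3 level at 18 hours was the 9.48 given above.

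The knockout response at 2 weeks differed between its 2 mice. In all 33 genes were called (0.109%) and none of the 42, with 2 of the 42 and 2488 of all genes at an unadjusted p under 0.05. Col1a1 stood at 6.50 and 6.43 in untreated knockout and at 6.28 and 6.96 at 2 weeks, Col1a2 at 6.69 and 6.68 and then 6.34 and 7.42, and Col3a1 at 6.36 and 6.20 and then 6.15 and 6.49. In each case 1 mouse lay below both untreated mice and the other above. The differences were 0.15 ± 0.20, 0.19 ± 0.28 and 0.05 ± 0.14 (limma adjusted p = 0.884, 0.903 and 0.962). Col8a2, the partner of Col8a1 in type VIII networks, was 5.56 and 5.44 before and 5.92 and 5.76 after (0.34 ± 0.15, limma adjusted p = 0.598). Col19a1 differed by 0.23 ± 0.15 and Lama4 by -0.24 ± 0.17.

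At 2 weeks 55 genes differed between knockout and wild type (0.182%), and none of the 42 was among them, with 12 of the 42 and 5841 of all genes at an unadjusted p under 0.05. With knockout lower, the widest differences were Col1a1 at -1.19 ± 0.20 (limma adjusted p = 0.0501) and Col1a2 at -1.13 ± 0.28 (limma adjusted p = 0.115), and Col8a1 (-1.09 ± 0.29) and Col15a1 (-0.999 ± 0.27) followed. With knockout higher they were Lama3 (1.15 ± 0.30) and Col6a6 (0.49 ± 0.29). The groups did not overlap with knockout lower for 15 of the 42 genes (22.8% of all genes), among them the type I, III and VI chains Col1a1, Col1a2, Col3a1, Col6a1, Col6a2 and Col6a3. The test of the difference in response between genotypes called none of the 42 genes and none of all genes at 2 weeks, with 6 of the 42 and 2244 of all genes at an unadjusted p under 0.05. For Col1a1 it was -1.09 ± 0.28 and for Col1a2 -0.97 ± 0.40 (limma adjusted p = 0.607 and 0.657). A rise called in wild type and not in knockout is therefore not shown to differ between them. These values lean on the knockout mice at 2 weeks. Without replicate 1, the mouse that stood apart, the differences between genotypes were -0.84 for Col1a1 and -0.59 for Col1a2, and the differences in response -0.75 and -0.42, with limma adjusted p from 0.277 to 0.694. Without replicate 2 they were -1.53 and -1.67, and -1.43 and -1.51, and all 4 passed (limma adjusted p from 0.00106 to 0.0289), beside 17.7% of all genes called between genotypes and 1.77% in the response. On 13 arrays none of the 42 was called between genotypes at 2 weeks.

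**Figure D4:**
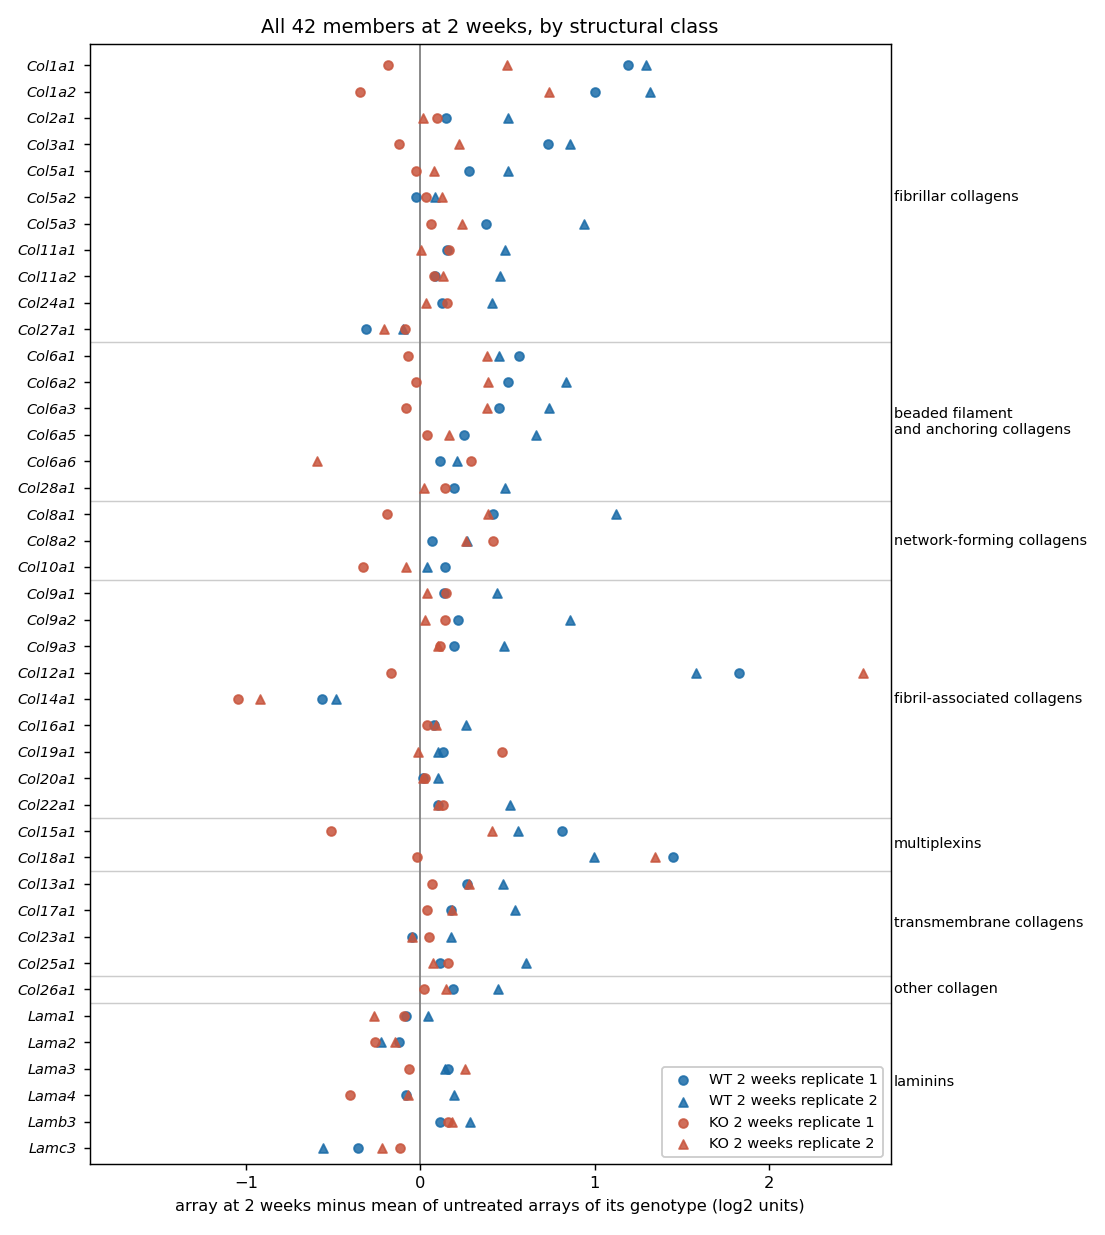
Level of each array at 2 weeks minus the mean of the 2 untreated arrays of its genotype (horizontal axis, deposited log2 units) for each of the 42 genes (vertical axis, by structural class), in blue for wild type and red for knockout, 1 point per mouse. The mean of the 2 points lies above 0 for 37 of the 42 in wild type and 33 in knockout.

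Untreated mice gave 2 of the 42 genes at an unadjusted p under 0.05 between genotypes, 18 hours none and 6 days 4, beside 1564, 707 and 1457 of all genes, and none of the 42 was called (0.0%, 0.0% and 0.00664% of all genes). With knockout lower, the widest untreated differences were Col8a1 (-0.42 ± 0.29) and Col18a1 (-0.34 ± 0.38). At 18 hours the 2 widest in each direction were Lama3 (0.19 ± 0.30) and Col5a2 (0.16 ± 0.14), and Col14a1 (-0.30 ± 0.27) and Lama2 (-0.25 ± 0.15). At 6 days Col14a1 (-0.47 ± 0.27) and Col12a1 (-0.35 ± 0.63) lay lowest. On the average of the 4 times Col8a1 (-0.50 ± 0.14) and Col1a2 (-0.38 ± 0.14) did. The response differences at 18 hours and 6 days had 1 and 0 of the 42 genes at an unadjusted p under 0.05, beside 1108 and 395 of all genes, with none called. The 2 widest below and above 0 at 18 hours were Lama3 (-1.01 ± 0.43) and Col6a6 (-0.73 ± 0.41), and Col5a2 (0.35 ± 0.20) and Col15a1 (0.35 ± 0.39). At 6 days they were Col14a1 (-0.55 ± 0.39) and Col6a6 (-0.54 ± 0.41), and Lama1 (0.42 ± 0.31) and Col18a1 (0.19 ± 0.54).

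Among the 10 chains of the glomerular basement membrane set 3 rose in wild type at 2 weeks: Col4a2 by 1.27 ± 0.32, Col4a1 by 1.07 ± 0.27 and Col4a6 by 0.49 ± 0.13 (limma adjusted p = 0.0377, 0.0378 and 0.0405). The median of the 10 was 0.56, beside a median of 0.13 over all genes, of which 4.81% rose. Col4a6 lay below the median gene level, where 83.2% of all genes lay higher, with a median of 0.21. Whether the 2 sets differ was not tested.

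Genes that make, cut and crosslink collagen moved in both directions in wild type at 2 weeks. Of 26 measured, 2 rose and 2 fell, with a median of 0.15. Of all genes 4.81% rose and 3.23% fell, with a median of 0.13, and these figures stand beside each list that follows here. Lox, which crosslinks collagen, rose by 0.76 ± 0.15, and Adamts3, a protease that trims procollagen, by 0.81 ± 0.15 (limma adjusted p = 0.0217 and 0.0186). Both lay below the median gene level, where 83.2% of all genes lay higher, with a median of 0.21. Ppib and P4hb, which help collagen and other secreted proteins fold, fell by 1.07 and 1.11 (limma adjusted p = 0.0247 and 0.0469). Plod2, which hydroxylates the lysines used in crosslinks, differed by 2.24 ± 0.73 and did not pass (limma adjusted p = 0.0783). Of 16 collagen receptors and fibril partners none rose and Prelp fell by 1.09 (limma adjusted p = 0.0143), and Sparc (2.08 ± 0.83), Itga2 (1.62 ± 0.48) and Bgn (1.28 ± 0.48) did not pass. Of 12 laminin receptors and partners, with a median of 0.85, the integrin chain Itgb4 rose by 0.84 ± 0.15 (limma adjusted p = 0.0156), and Nid1 (1.95 ± 0.73) and Itga3 (1.54 ± 0.62) did not pass. Of 15 genes of the TGF-beta pathway 5 rose, with a median of 0.57 over the 15. They were Tgfb1 by 1.29, Tgfbr2 by 1.21, Tgfbi by 0.88, Ltbp2 by 0.86 and Smad2 by 0.57. Ltbp2 lay below the median gene level, as Lox and Adamts3 did. For the genes of these lists, results without single arrays or after quantile normalization are not given here. The limma adjusted p ran from 0.0156 to 0.0487 over the called genes of these last 2 lists. The TGF-beta pathway is known to induce fibrillar collagen genes, and its part in the collagen result was not tested.

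Mean levels of markers of several cell types also differed between untreated wild type and wild type at 2 weeks. The mean of 9 measured fibroblast markers (of 11) went from 5.69 and 5.95 before serum to 5.95 and 6.02 at 2 weeks, so the 2 groups overlapped slightly. For the 6 myofibroblast markers it was 6.54 and 6.63 against 7.20 and 7.37, for the 7 smooth muscle and pericyte markers 8.28 and 8.08 against 8.89 and 8.74, and for the 6 parietal epithelial markers 8.60 and 8.43 against 9.77 and 9.53. The 6 measured mesangial markers (of 7) stood at 8.18 and 7.79 against 8.49 and 9.09, the 10 macrophage markers at 6.30 and 6.20 against 7.12 and 7.04, and the tubule injury genes at 5.62 and 5.71 against 9.15 and 8.79. The 7 measured podocyte markers stood at 10.89 and 10.06 against 10.98 and 11.41, and the 8 glomerular endothelial markers at 10.38 and 9.96 against 10.42 and 11.24. The mean of the distal nephron and collecting duct markers lay lower, at 13.38 and 13.21 against 13.04 and 11.90, as did the proximal tubule mean given above. All of these lists but the fibroblast list had no overlap, beside 39.1% of single genes upward and 20.0% downward. Their part in the collagen result was not tested.

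Each of the 6 rises and the fall depended on particular arrays. Without either untreated wild-type array, or without wild type 2 weeks replicate 2, none of the 42 genes was called, the lone array left being assumed to vary like the other groups, beside 0.106%, 0.0% and 0.766% of all genes. The number called was 23 without wild type 2 weeks replicate 1, beside 24.7% of all genes, and 13 without either knockout array at 2 weeks, beside 15.5%. Over the 16 arrays left out in turn the difference of Col1a1 stayed between 1.04 and 1.45 and it was called 13 times, Col3a1 between 0.68 and 0.91 and 13 times, and Col1a2 between 1.01 and 1.32 and 9 times. Col6a2 lay between 0.50 and 0.84 and was called 13 times, Col5a1 between 0.28 and 0.50 and 3 times, and Lamc3 between -0.56 and -0.36 and 5 times. Col5a3 lay between 0.38, without wild type 2 weeks replicate 2, and 0.94 and was called 11 times. On 14 arrays Col1a1 and Col3a1 were called at 2 weeks in wild type (limma adjusted p = 0.0324 and 0.0392, beside 2.85% of all genes called and 1.61% called higher). On 13 arrays 9 genes were called, all higher (6.40% of all genes): Col1a1, Col1a2, Col3a1, Col5a3, Col6a1, Col6a2, Col12a1, Col15a1 and Col18a1, and Lamc3 was not.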

How the data were processed

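The authors deposited log2 values of 72688 probesets on 16 arrays, 1 per mouse. The submitters' processing notes name 2 programs, Transcriptome Analysis Console and Affymetrix Expression Console; versions, summarisation method and genome build: not given in the sources used here. Array medians over all 72688 probesets lay between 5.57 and 5.90. Probesets with several symbols (2146) or none (39938) were left out, and for 355 genes with more than 1 probeset the one with the highest mean was taken, which left 30142 genes. Symbols of 827 probesets were updated through Entrez identifiers.

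A mean for each of 8 groups was fitted over all 16 arrays in limma 3.58.1 (R 4.3.3), with an intensity trend and 8 residual degrees of freedom, and 14 contrasts were taken. Adjustment was Benjamini-Hochberg, over all genes of a contrast. The procedure was tested on simulated data. Alternatives left out dim genes, averaged probesets, used quantile normalization, dropped the trend, fitted only the groups compared, added the replicate number, or left out each array in turn. The sets of 14 and 13 arrays were added after seeing the data.

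The members and gene lists were chosen with earlier results of these data known. Named were called members, the 4 widest rises and 2 widest falls after serum, the 2 of each between genotypes, and up to 4 genes per list. Promoters were searched over the 250 bases before each start. The labels give 2 mice per group, which limits the precision.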

Additional observations from a re-analysis of the deposited data

Results flagged for a closer look

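Col17a1, a transmembrane collagen of epithelial attachment, gave opposite signs at 18 hours. In wild type its level was 5.21 and 5.11 untreated and 5.02 and 5.08 at 18 hours. In knockout it was 5.08 and 5.08 untreated and 5.11 on both arrays at 18 hours. Both wild-type arrays at 18 hours thus lay below the untreated ones of their genotype, and both knockout arrays above theirs. The knockout value at 18 hours, 5.1067 on both arrays, was also that of untreated wild type replicate 2. The responses differed by 0.14. The difference in response was not called in limma, and both 18-hour replicate 2 arrays go against their labels by the male-biased genes.

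Col23a1, another transmembrane collagen, gave opposite signs at 6 days. Wild type read 5.83 and 5.69 untreated, then 6.14 and 5.85 at 6 days, while knockout read 5.88 and 5.86 untreated, then 5.85 and 5.78. The value 5.8459 was the same on wild type 6 days replicate 2 and knockout 6 days replicate 1. It was also that of wild type 18 hours replicate 2. The same reading thus counted as higher in wild type and as lower in knockout. The responses differed by -0.29, which was not called in limma.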

How the results depend on the processing

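With 2 arrays a group the calls are easily lost. For wild type at 2 weeks the 7 called members became 3 with quantile normalization and 2 on 14 arrays. With only the groups compared they were 3 (Col1a1, Col1a2 and Col12a1). Without dim genes 4 members were called, but that fit tested only 18 members and 15071 genes. Col5a1, Col5a3 and Col6a2 lay below the median gene level and were not tested in it. The 4 and the 7 are therefore not counts over the same genes. The called members stayed at 7 with the replicate number as a block. With that replicate block 2028 of all 30142 genes were called in wild type at 2 weeks. In the same fit 1 member was called between genotypes at 2 weeks, Col1a1 (-1.19, limma adjusted p = 0.0492). Without the block Col1a1 narrowly missed the threshold in that contrast. The number of all genes called between genotypes at 2 weeks with the block is not given here. Same-numbered arrays deviated together (r over 0.1) in 11 of 28 pairs of groups, with r from -0.68 to 0.59, so the numbers are not taken as pairs. On 14 arrays 1 member was called between genotypes untreated, 1 at 6 days and 2 on average, beside 0.169%, 0.236% and 1.72% of all genes. On 13 arrays these were 1, 1 and 1 (0.63%, 0.737% and 2.61% of all genes), and 2 were called in knockout at 2 weeks (4.35%), so that the last 2 shares, 2.38% and 4.76% of the members, lie near those of all genes. Leaving out single arrays gave 0 to 23 called members in wild type at 2 weeks, 0 to 2 in knockout at 2 weeks, 0 to 12 between genotypes at 2 weeks, 0 to 10 on average and 0 to 4 for the response difference at 2 weeks, and 0 to 0 in the other contrasts. The 5 highest counts came beside 24.7%, 5.30%, 17.7%, 7.29% and 1.77% of all genes called. The first was without wild type 2 weeks replicate 1, the second without knockout 2 weeks replicate 1 and the other 3 without knockout 2 weeks replicate 2. Over all genes the 2424 calls in wild type at 2 weeks (1450 higher, 974 lower) became 1214 with quantile normalization (623 and 591). They became 619 with only the groups compared, 859 on 14 arrays and 3884 on 13. Without dim genes 1794 of the 15071 genes tested were called (607 higher, 1187 lower).

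Signs turned only for differences that were not called on 16 arrays. Those of Col12a1 and Col18a1 in knockout at 2 weeks were among them, and both passed on 13 arrays. On 14 and 13 arrays Col5a2 became -0.0164 in knockout at 18 hours and -0.12 between genotypes at 18 hours, and on 13 arrays Col19a1 became -0.0165 in knockout at 2 weeks. Leaving out single arrays moved Col14a1 in wild type at 2 weeks from -1.07 to 0.021, Lama1 in wild type at 18 hours from -0.054 to 0.50, Lama3 between genotypes at 18 hours from -0.36 to 0.73, and Lamb3 in knockout at 18 hours from -0.10 to 0.43. It moved Col5a2 from -0.0164 to 0.36 in knockout at 18 hours and from -0.031 to 0.35 between genotypes, Col12a1 between genotypes at 6 days from -0.70 to 0.0102, and the response difference of Col18a1 at 6 days from -0.14 to 0.53. In knockout at 2 weeks the ranges were -0.17 to 2.54 for Col12a1, -0.0217 to 1.34 for Col18a1 and -0.0165 to 0.47 for Col19a1. The cause was not tested.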
